A study of Mus musculus with 40 samples.

Results

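The genes described here are 10 serotonin receptors (Htr1a, Htr1b, Htr1d, Htr1f, Htr2a, Htr2c, Htr3a, Htr4, Htr5a and Htr7) of 43629 genes counted by RNA sequencing in the mouse amygdala. They were chosen by symbol as members of the serotonin receptor family, and all 10 were found in the table of counts. Serotonin is released in the amygdala by fibres of neurons whose cell bodies lie in the raphe nuclei of the brainstem, and it acts there through receptors of several families that often oppose each other. Htr1a, Htr1b, Htr1d, Htr1f and Htr5a encode receptors that couple to the inhibitory Gi/o proteins and lower cyclic AMP, whereas Htr4 and Htr7 encode receptors that couple to Gs and raise it. Htr2a and Htr2c encode receptors that act through Gq and phospholipase C, and Htr3a encodes a subunit of a cation channel that is opened by serotonin. In the amygdala this system is best known for its part in fear, anxiety and social behaviour.

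The animals were male Swiss Webster mice aged 10 weeks, and RNA came from the amygdala of the left hemisphere. CON mice had been kept conventionally, GF mice had lived without microbes, and exGF mice had been born without microbes and moved at weaning to the standard unit with used bedding of CON mice. All received the same autoclaved diet. In each case they were either naïve (n = 4 libraries in each of CON, GF and exGF) or taken 1 hr after social interaction (CON-SI, n = 8, GF-SI, n = 12, and exGF-SI, n = 8). GF mice and CON mice came from different breeding pairs, so that germ-free life and parentage cannot be told apart. Naïve libraries (P with a number here) pooled animals, 2 according to the methods and 2 to 3 according to the sample records. The study's quality records, however, list P2 of GF as a single sample. Each SI library (S with a number) held a single animal. A comparison of SI with naïve libraries therefore also sets single animals against pools, and single animals can vary more. SI mice had also been habituated to a room and an arena and had met an object, and these effects cannot be told apart from social contact.

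Library totals ranged from 7291810 to 19961958 counts. In 5 libraries (P1 and P3 of CON, P1 and P2 of exGF, S7 of exGF-SI) the ribosomal RNA-related gene Gm42418 took 6.23% to 32.4% of the counts, against at most 1.75% elsewhere, and in 5 (S4, S7 and S9 of exGF-SI, S8 and S12 of GF-SI) the summed markers of the choroid plexus reached 1374 to 2236 CPM (counts scaled to a common library size), against at most 523 CPM elsewhere. Values are given as CPM after TMM scaling, which corrects for libraries of different composition. Markers of amygdala nuclei summed to 114 to 183 CPM in every library. Those of the striatum summed to 198 CPM in P1 of GF and to at most 106 CPM elsewhere. In bulk tissue, fewer cells that express a receptor cannot be told apart from less RNA in each cell.

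Promoters are shown for the 4 receptors that the comparisons turned on, so that their letters can be set beside the values that follow. The sequences span 250 bases before to 50 bases after the start that RefSeq gives the gene, are written 5′ to 3′ on the strand of the gene and come from RefSeq on GRCm38.p6. Capitals mark letters that match TGANTCA, the AP-1 site bound by Fos and Jun proteins. The windows lie at chr9:81633783-81634082 (minus strand) for Htr1b, chr14:74640624-74640923 (plus strand) for Htr2a, chrX:146962263-146962562 (plus strand) for Htr2c and chr5:27841697-27841996 (plus strand) for Htr5a. Starts in RefSeq can differ from those of GENCODE, from which the gene positions in the text come, and for Htr5a the whole window lies before the GENCODE start.
Htr1b: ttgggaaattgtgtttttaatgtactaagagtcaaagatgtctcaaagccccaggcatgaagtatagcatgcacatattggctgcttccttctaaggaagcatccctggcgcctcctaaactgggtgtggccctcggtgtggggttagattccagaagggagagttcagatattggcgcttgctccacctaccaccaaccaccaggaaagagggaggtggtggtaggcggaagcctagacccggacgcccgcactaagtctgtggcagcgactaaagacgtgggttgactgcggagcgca
Htr2a: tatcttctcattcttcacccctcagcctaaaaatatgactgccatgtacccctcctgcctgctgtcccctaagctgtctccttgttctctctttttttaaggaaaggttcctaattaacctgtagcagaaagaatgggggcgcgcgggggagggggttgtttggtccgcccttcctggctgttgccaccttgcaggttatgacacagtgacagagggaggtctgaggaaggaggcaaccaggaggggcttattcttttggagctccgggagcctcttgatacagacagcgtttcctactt
Htr2c: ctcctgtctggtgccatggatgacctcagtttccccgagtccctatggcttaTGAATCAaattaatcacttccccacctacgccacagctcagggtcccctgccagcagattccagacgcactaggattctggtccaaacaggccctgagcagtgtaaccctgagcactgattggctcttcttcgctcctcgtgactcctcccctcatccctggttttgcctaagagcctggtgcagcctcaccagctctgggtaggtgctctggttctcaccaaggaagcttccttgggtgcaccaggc
Htr5a: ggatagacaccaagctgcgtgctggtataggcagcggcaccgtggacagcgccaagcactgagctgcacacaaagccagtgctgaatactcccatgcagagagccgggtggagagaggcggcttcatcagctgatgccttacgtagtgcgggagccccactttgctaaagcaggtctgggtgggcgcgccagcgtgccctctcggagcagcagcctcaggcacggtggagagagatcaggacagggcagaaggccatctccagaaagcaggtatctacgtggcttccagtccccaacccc

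The windows were searched on both strands for TGANTCA, for the cyclic AMP response element TGACGTCA and for its core TGACG, which lies within it. Among all 32851 promoter windows of the same length, TGANTCA was found in 7.81%, TGACGTCA in 1.79% and TGACG in 20.8%. The window of Htr2c held TGANTCA in a single place, 198 bases before the RefSeq start. Those of Htr1b, Htr2a and Htr5a held none of these letters. The windows also differed in their CG pairs, of which there were 5 in Htr2c, 6 in Htr2a, 11 in Htr1b and 14 in Htr5a. No factor's binding was measured, and a match of letters is a description only.

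To compare levels between genes, CPM were divided by the length of annotated exons. In this order Htr1a was highest with 6.18 ± 1.71 CPM per kilobase (SD, n = 40), followed by Htr2c with 4.80 ± 2.01 and Htr5a with 4.24 ± 0.563. Htr2a (3.03 ± 0.464), Htr7 (2.92 ± 0.537) and Htr1b (2.62 ± 0.60) came next on the same scale. Htr3a (1.25 ± 0.321), Htr1f (1.09 ± 0.252) and Htr4 (0.973 ± 0.353) were lower, and Htr1d was lowest with 0.161 ± 0.121. Several neighbours in this order could not be separated: Htr1a was above Htr2c in 28 of 40 libraries, Htr2c above Htr5a in 23, Htr2a above Htr7 in 21 and Htr1f above Htr4 in 22. The steps from Htr5a to Htr2a (37 of 40), from Htr1b to Htr3a (38 of 40) and from Htr4 to Htr1d (40 of 40) were clearer. Without division by length, Htr2c took the place of Htr1a at the top of the order.

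**Figure D1:**
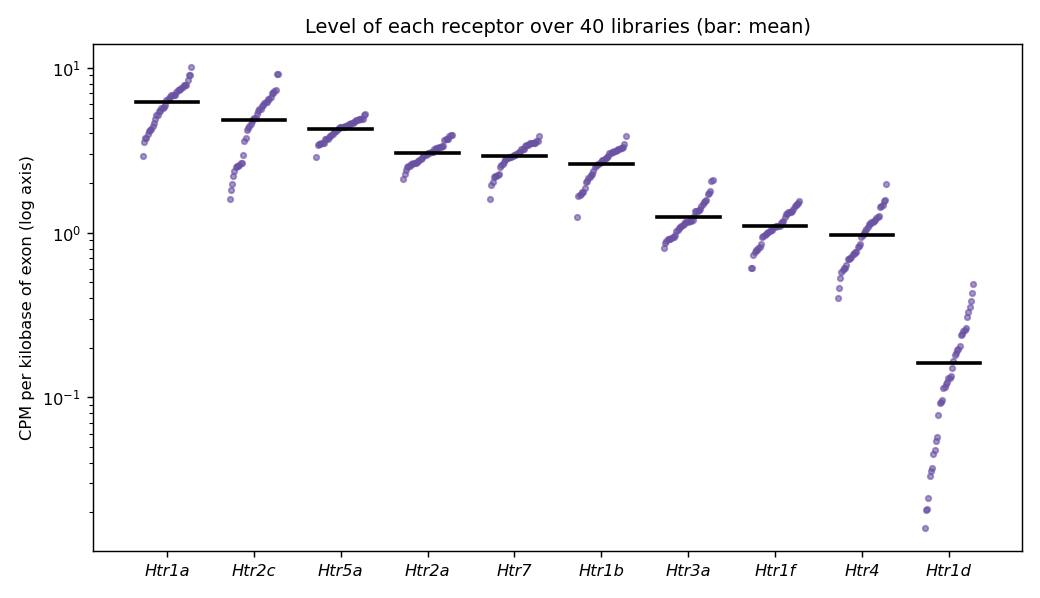
Level of each receptor in CPM per kilobase of exon, on a log axis, with a point for each of the 40 libraries and a bar at the mean. Htr1a, Htr2c and Htr5a stand highest and overlap, and Htr1d lies below all others, with its lowest and highest libraries furthest apart.

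The receptors also differed in how much they varied. Htr5a and Htr2a were the steadiest, with the highest library at 1.82 and 1.86 times the lowest. Htr2c spanned 5.79 times, Htr4 4.91 times, Htr1a 3.46 times and Htr1b 3.10 times. Htr1d spanned 30.2 times, and it rested on 1 to 24 counts in a library. Counts of the other low receptors ran from 16 to 65 for Htr1f, 16 to 61 for Htr3a and 16 to 133 for Htr4, while Htr2c had 219 to 1325 counts.

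**Figure D2:**
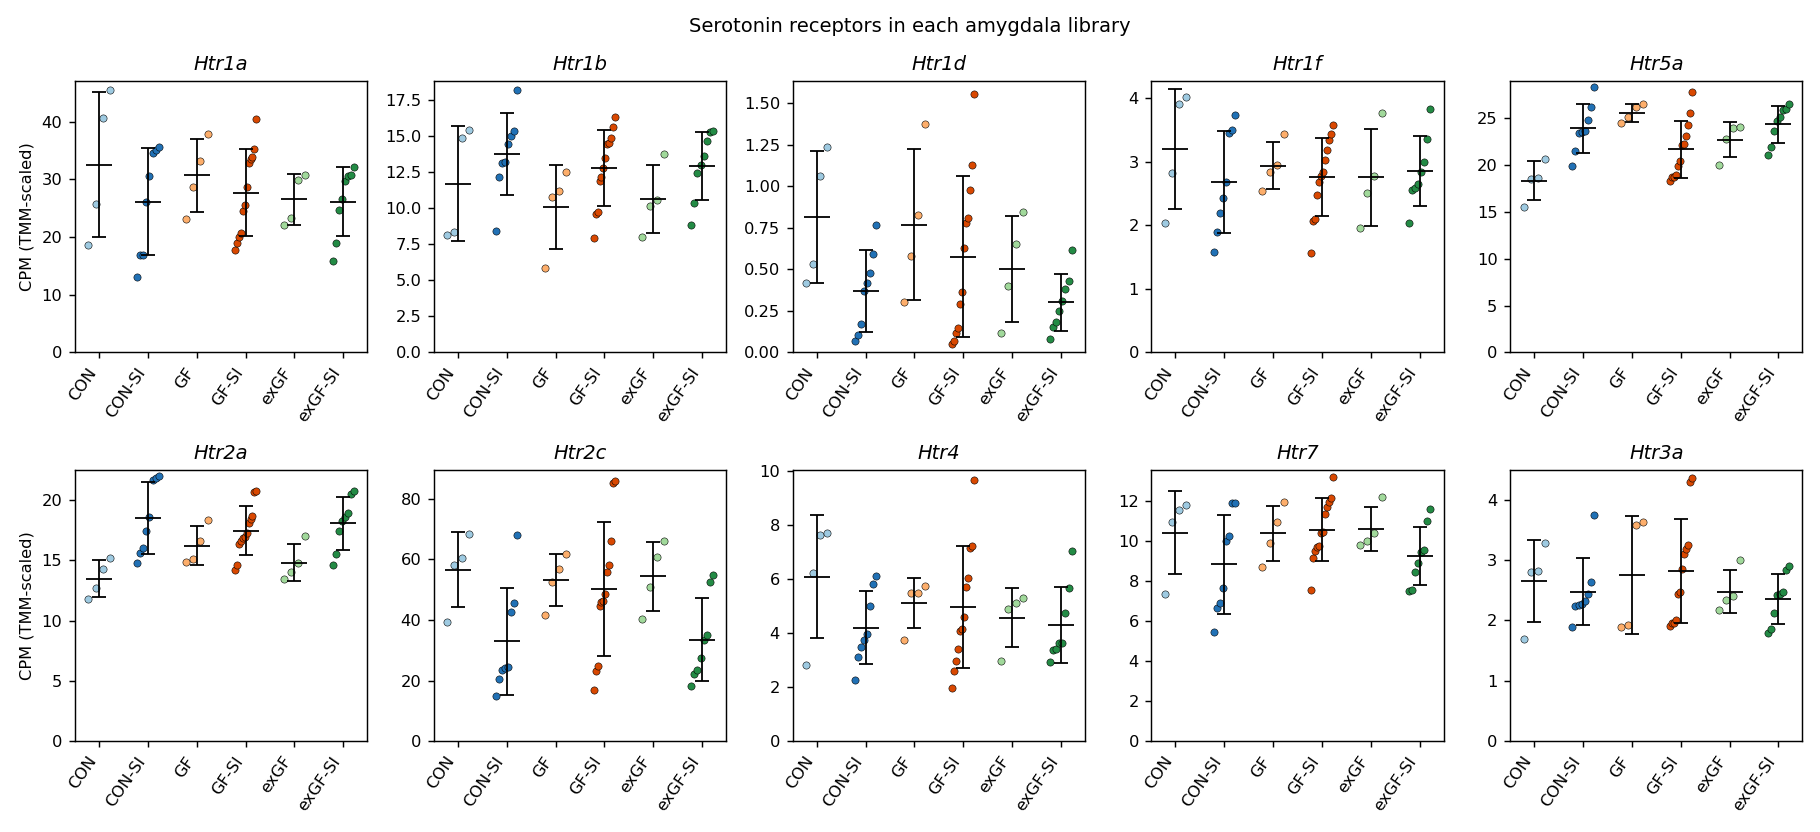
CPM of the 10 receptors in each library of the 6 groups, with points set from left to right by value within a group, and the mean and SD as bars. Htr5a of naïve GF sits above all CON libraries, Htr2c spreads widely in the SI groups, and most receptors overlap between groups.

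The question of the main comparisons was whether social interaction changes receptor expression within a colonisation status. No member passed an adjusted p of 0.1 in edgeR's quasi-likelihood test in any of the 3 responses. In CON-SI against CON 0 of 9 members tested were called, where 3.72% of all genes were called, and 4 members had an unadjusted p under 0.05. In GF-SI against GF it was 0 of 10 with 13.7% of all genes called and 1 member under 0.05, and in exGF-SI against exGF 0 of 9 with 7.61% and 2 members. Htr1d was too low to be tested except in GF-SI against GF and in the fit over all groups. Across the 3 responses the members' median log2 fold change was -0.26 in CON, -0.07 in GF and -0.04 in exGF, against a median between -0.01 and 0.00 over all genes tested. DESeq2 called Htr2a and Htr5a in CON-SI against CON and no member in the other 2 responses. The mean of the 3 responses, taken in a single fit over the 6 groups, used all 40 libraries, and there 26.7% of all genes passed and 3 of 10 members did, with Htr2a and Htr1b rising and Htr2c falling.

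**Figure D3:**
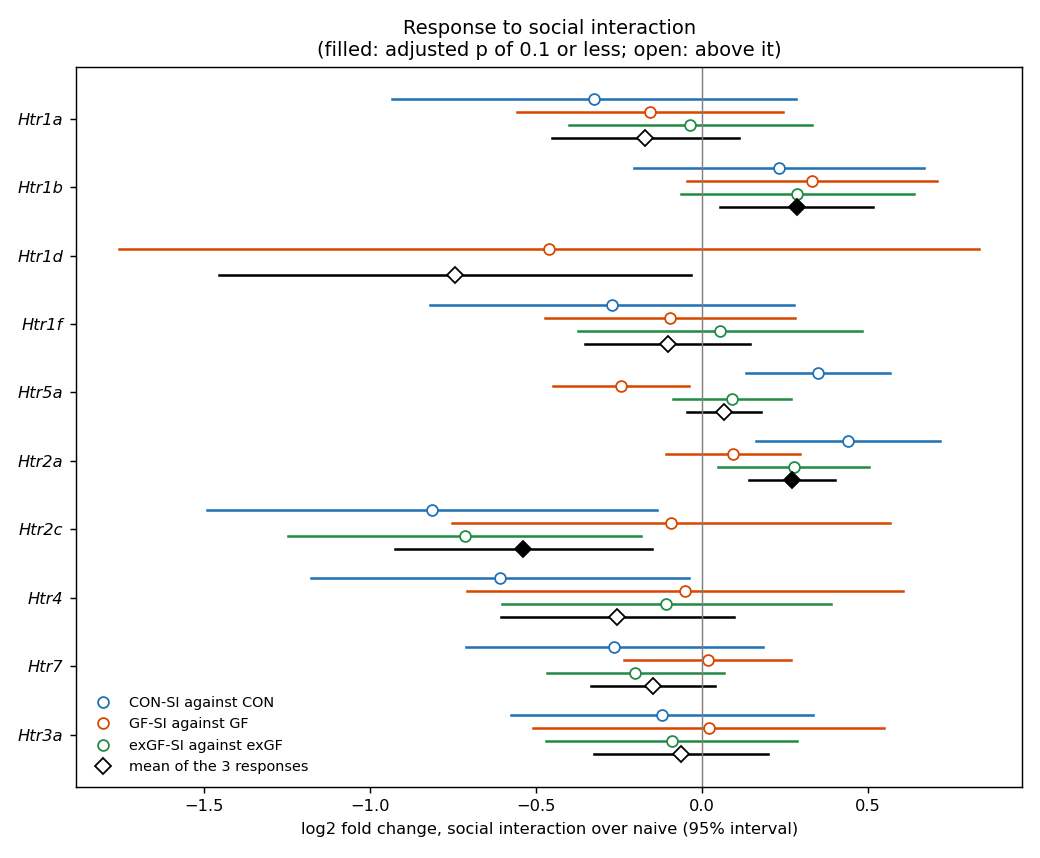
Log2 fold change of each receptor after social interaction, with 95% intervals, for CON, GF and exGF and for the mean of the 3 responses. Only 3 symbols are filled, those of Htr1b, Htr2a and Htr2c in the mean response, while Htr5a lies to the right of 0 in CON and to the left in GF.

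Htr2a rose by a mean log2 fold change of 0.27 ± 0.06 (SE, adjusted p = 0.00216, edgeR, 40 libraries). Htr2a (ENSMUSG00000034997, chromosome 14, 74640840 to 74709494 on GRCm38, plus strand) encodes the excitatory Gq-coupled receptor on which hallucinogens act. In naïve CON the 4 libraries held 11.8, 12.7, 14.3 and 15.2 CPM, in naïve GF 14.9, 15.1, 16.6 and 18.3 CPM, and in naïve exGF 13.5, 14.02, 14.8 and 17.0 CPM. Among CON-SI libraries it ranged from 14.8 to 22 CPM (median 18.0), among GF-SI libraries from 14.2 to 20.7 CPM (median 17.1), and among exGF-SI libraries from 14.6 to 20.8 CPM (median 18.4). The groups overlapped in every status, yet 12 of 28 SI libraries were above the highest naïve library, 4 in each SI group, and none was below the lowest.

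By status, the change of Htr2a was 0.44 ± 0.13 in CON (adjusted p = 0.106, edgeR), 0.28 ± 0.11 in exGF (adjusted p = 0.158) and 0.09 ± 0.10 in GF (adjusted p = 0.597). The difference between the GF and CON responses was -0.34 with a 95% interval from -0.66 to -0.03 and an adjusted p of 0.274, so that it was not shown to differ. The call in the mean response held in all 40 fits that left out a library, with log2 fold changes of 0.25 to 0.30. Without the 5 libraries rich in Gm42418 the mean responses of Htr2a (0.27), Htr1b (0.35) and Htr2c (-0.66) were still called, with adjusted p of 0.0145, 0.0753 and 0.0526.

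Htr1b, an inhibitory receptor known as an autoreceptor on serotonin terminals and as a brake on release at other terminals, rose by 0.29 ± 0.11 in the mean response (adjusted p = 0.0711, edgeR). The gene lies on chromosome 9 at 81628291 to 81633828 (GRCm38, minus strand). Naïve libraries held 8.12, 8.35, 14.9 and 15.4 CPM in CON, 5.87, 10.7, 11.2 and 12.5 CPM in GF, and 7.98, 10.2, 10.5 and 13.7 CPM in exGF. SI libraries ranged from 8.38 to 18.2 CPM in CON-SI (median 13.8), 7.94 to 16.3 in GF-SI (median 13.1) and 8.79 to 15.3 in exGF-SI (median 13.3). The ranges overlapped broadly, with 3 of 28 SI libraries above every naïve library and 22 above the naïve median. The change was 0.23 ± 0.20 in CON, 0.33 ± 0.18 in GF and 0.29 ± 0.16 in exGF, none of them called. Its call is close to the threshold: it was lost in 5 of 40 fits that left out a library (P3 or P4 of CON, P3 of GF, P3 or P4 of exGF, adjusted p up to 0.159), and without the 5 libraries with high choroid plexus markers (0.27, adjusted p = 0.122). Exons of Htr1b overlap the antisense gene D430036J16Rik, and since counting ignored strand, reads within the overlap could not be assigned to either gene.

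Htr2c fell by 0.54 ± 0.19 in the mean response (adjusted p = 0.0414, edgeR). Htr2c (ENSMUSG00000041380, chromosome X, 146962513 to 147197277 on GRCm38, plus strand) encodes a Gq-coupled receptor whose RNA is known for adenosine editing and which is very abundant in the choroid plexus. In naïve CON it was at 39.2, 58.2, 60.6 and 68.3 CPM, in naïve GF at 41.7, 52.4, 56.8 and 62.0 CPM, and in naïve exGF at 40.2, 50.8, 60.8 and 66.1 CPM, and the 3 naïve groups overlapped. In CON-SI it ranged from 14.9 to 68.0 CPM (median 24.3) and in exGF-SI from 18.3 to 54.9 CPM (median 30.5). In GF-SI the range was the widest, 17.0 to 86.1 CPM, and the median 47.5 CPM. Of the 28 SI libraries, 14 were below the lowest naïve library (5 of 8 in CON-SI, 6 of 8 in exGF-SI and 3 of 12 in GF-SI), and 2, both of GF-SI, were above the highest.

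In single responses the change of Htr2c was -0.81 ± 0.32 in CON (adjusted p = 0.217, edgeR), -0.71 ± 0.25 in exGF (adjusted p = 0.124) and -0.09 ± 0.32 in GF (adjusted p = 0.900). The GF response was not shown to differ from that of CON (difference 0.72, 95% interval -0.24 to 1.68, adjusted p = 0.477) or from that of exGF (adjusted p = 0.655). The mean response was called in all 40 fits that left out a library, between -0.62 and -0.50, and without the 5 libraries with high choroid plexus markers it was -0.58 (adjusted p = 0.0383). In those 5 libraries Ttr, the leading transcript of the choroid plexus, reached 706 to 1369 CPM, while Htr2c held 24.8 to 54.9 CPM, within the range of the other SI libraries.

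The level of Htr2c moved with the markers of 1 neighbouring region and, among cell types, with those of oligodendrocytes and their precursors. Over 40 libraries, as deviations from the group mean, it was lower where the summed markers of cortex and claustrum were higher (r = -0.713, rho = -0.649, adjusted p = 0.00085 for r by permutation over 170 relations of members with 17 marker lists, r = -0.633 without the 2 libraries farthest from the median). No such relation was called with the markers of hippocampus (r = 0.220, rho = 0.247, adjusted p = 0.381 by permutation, r = 0.205 without the 2 farthest), amygdala nuclei (r = 0.260, rho = 0.236, adjusted p = 0.374, r = 0.292), striatum (r = -0.143, rho = -0.157, adjusted p = 0.530, r = -0.03) or hypothalamus and thalamus (r = 0.0251, rho = 0.0295, adjusted p = 0.930, r = 0.00799). Among cell types, Htr2c was lower where oligodendrocyte markers were higher (r = -0.509, rho = -0.555, adjusted p = 0.0536 by permutation, r = -0.42 without the 2 farthest). It was higher where markers of oligodendrocyte precursors were higher (r = 0.431, rho = 0.459, adjusted p = 0.0478 by permutation, r = 0.386). For cortex and claustrum by group, r was -0.882 for the GF-SI libraries, -0.607 for those of exGF-SI and -0.538 for those of CON-SI. The cortex markers summed to 283 to 431 CPM in CON and 370 to 572 CPM in CON-SI, to 307 to 396 CPM in GF and 283 to 579 CPM in GF-SI, and to 310 to 423 CPM in exGF and 354 to 488 CPM in exGF-SI. In the mean response 2 of 7 of these markers rose (Nr4a2 and Fezf2), and 5 of 7 hippocampal markers fell, among them Tdo2 and Lct. Of all genes 26.7% were called there. Nr4a1 and Nr4a3, of the same family as Nr4a2, are in the list used here for recent activity of neurons. The hippocampal sum ran from 27.6 to 81.6 CPM in CON and 20.02 to 29.2 CPM in CON-SI, from 22.3 to 45.1 CPM in GF and 21.7 to 61.8 CPM in GF-SI, and from 25.7 to 55.7 CPM in exGF and 15.9 to 25.4 CPM in exGF-SI. The part of these markers in the change of Htr2c was not tested.

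**Figure D4:**
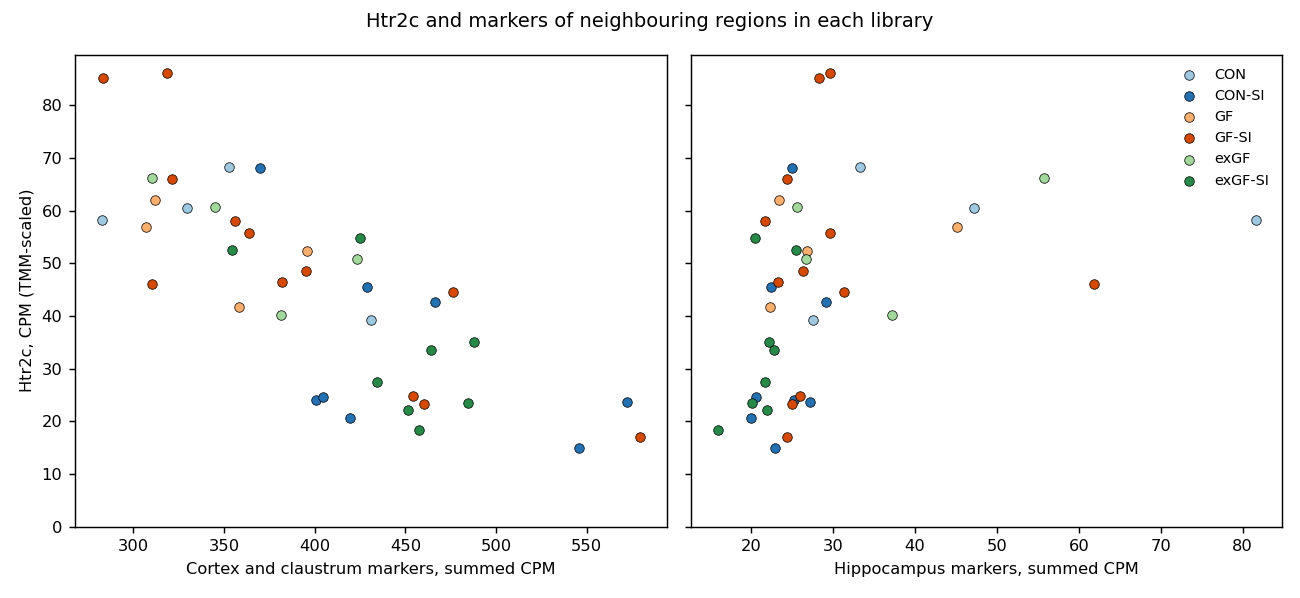
CPM of Htr2c in each library against the summed CPM of markers of cortex and claustrum (left) and hippocampus (right), with a point for each library coloured by group. The 3 libraries with the highest cortex markers, 2 of CON-SI and 1 of GF-SI at 546 to 579 CPM, hold 14.9 to 23.6 CPM of Htr2c, and the hippocampus sums run from 15.9 to 81.6 CPM.

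Htr5a was the only member called in a difference between responses. Htr5a (ENSMUSG00000039106, chromosome 5, 27842149 to 27855088 on GRCm38, plus strand) encodes an inhibitory receptor. In naïve CON it held 15.6, 18.5, 18.7 and 20.6 CPM, in naïve GF 24.5, 25.1, 26.2 and 26.5 CPM, and in naïve exGF 20.03, 22.8, 23.9 and 24.0 CPM. All GF libraries were above all CON and all exGF libraries, whereas CON and exGF overlapped. Libraries of the groups did not overlap for 5.96% of genes in GF against CON, 3.58% in exGF against CON and 5.01% in exGF against GF. After social interaction Htr5a ranged from 19.9 to 28.3 CPM in CON-SI (median 23.6), from 18.3 to 27.8 in GF-SI (median 21.3) and from 21.1 to 26.4 in exGF-SI (median 24.9), and the 3 SI groups overlapped.

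Between naïve GF and CON the difference in Htr5a was 0.46 ± 0.10 (unadjusted p = 0.000712, adjusted p = 0.220, edgeR, 8 libraries), not called in the main fit. On the same 2 groups it was called by DESeq2 (adjusted p = 0.0374) and by edgeR without a filter on low counts (adjusted p = 0.0768). The edgeR fit over the 6 groups (adjusted p = 0.0830) also called it. Without the CON libraries with over 5% of counts in Gm42418 (P1 and P3) it was 0.38 with an adjusted p of 0.717. The value of exGF against CON was 0.28 ± 0.11 (adjusted p = 0.831) and that of exGF against GF -0.18 ± 0.09 (adjusted p = 0.567).

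The response of Htr5a was 0.35 ± 0.10 in CON (adjusted p = 0.102, edgeR) and -0.24 ± 0.10 in GF (adjusted p = 0.130), with 0.09 ± 0.08 in exGF (adjusted p = 0.564), each in a fit of its 2 groups alone. In the fit over the 6 groups, from which the differences between responses come, the responses in CON (0.35 ± 0.10, adjusted p = 0.0384) and in GF (-0.24 ± 0.09, adjusted p = 0.0776) were both called. The difference between the GF and CON responses, -0.59 with a 95% interval of -0.86 to -0.32, passed the test (adjusted p = 0.0854), where 0.0931% of 16111 genes did. DESeq2 also called it (adjusted p = 0.0204). The call did not hold without a filter on low counts (adjusted p = 0.120), without the Gm42418-rich libraries (-0.51, adjusted p = 0.505), without those with high choroid plexus markers (adjusted p = 0.109) or in 17 of 40 fits that left out a library. These were P1 and P3 of CON, S3, S5, S10 and S11 of CON-SI, P2 and P3 of GF, S2, S4, S5, S7, S8, S10 and S12 of GF-SI, P2 of exGF and S8 of exGF-SI. The adjusted p reached 0.306 without P3 of GF, and over the 40 fits the value lay between -0.65 and -0.53. The naïve CON and GF libraries enter both the naïve comparison and the responses, so these values are not independent. For the exGF response against that of CON (-0.26, 95% interval -0.54 to 0.02) and against that of GF (0.33, adjusted p = 0.315) Htr5a was not called, and neither was any other member or gene: 0% of 16111 genes passed in each of these contrasts, with 939 and 1839 at an unadjusted p under 0.05.

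The other inhibitory receptors gave no call. Htr1a (chromosome 13, 105443639 to 105448122), the autoreceptor of raphe neurons and a postsynaptic receptor in limbic regions, held 18.6, 25.7, 40.6 and 45.4 CPM in CON, 23.1, 28.7, 33.1 and 37.9 CPM in GF and 22.1, 23.4, 29.9 and 30.8 CPM in exGF. Its SI libraries ranged from 13.1 to 40.4 CPM, and the mean response was -0.17 with a 95% interval of -0.45 to 0.11. Htr1f (chromosome 16, 64924729 to 65105854) ran from 1.57 to 4.02 CPM over all libraries with a mean response of -0.10 (95% interval -0.35 to 0.15). Htr1d (chromosome 4, 136423524 to 136444398), like Htr1b a receptor on nerve terminals, had a mean response of -0.74 ± 0.35 (adjusted p = 0.136), but rests on few counts. Its medians were 0.616 CPM in the 12 naïve and 0.366 CPM in the 28 SI libraries.

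Neither Gs-coupled receptor nor the channel subunit was called. Htr7 (chromosome 19, 35958734 to 36057507) ran from 7.37 to 12.2 CPM in naïve and from 5.47 to 13.2 CPM in SI libraries, with a mean response of -0.15 (95% interval -0.33 to 0.04). Htr3a (chromosome 9, 48899213 to 48911099), in the forebrain a marker of a class of interneurons, ran from 1.69 to 3.62 CPM in naïve and from 1.79 to 4.37 CPM in SI libraries, with a mean response of -0.06 (95% interval -0.33 to 0.20). For Htr4, which lies on chromosome 18, the naïve values were 2.83, 6.22, 7.66 and 7.70 CPM in CON, 3.73, 5.50, 5.51 and 5.76 CPM in GF and 2.97, 4.89, 5.13 and 5.32 CPM in exGF. Its change was -0.61 ± 0.27 in CON (adjusted p = 0.272), -0.05 ± 0.31 in GF and -0.11 ± 0.23 in exGF, and its level also fell with rising cortex and claustrum markers (r = -0.661, rho = -0.622, adjusted p = 0.00243 for r by permutation, 40 libraries, r = -0.623 without the 2 farthest). By the same test Htr4 rose with markers of hippocampus (r = 0.497, rho = 0.412, adjusted p = 0.0387, r = 0.46 without the 2 farthest) and of oligodendrocyte precursors (r = 0.356, adjusted p = 0.0974). It fell with those of choroid plexus (r = -0.448, adjusted p = 0.0669) and of excitatory neurons (r = -0.41, adjusted p = 0.0974).

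Between colonisation groups no member was called by edgeR in fits of 2 groups with the filter on low counts. In naïve mice 0 of 9 members tested were called for GF against CON (0.142% of all genes called, 2 members under an unadjusted 0.05), exGF against CON (0.104% of all genes, 1 member) and exGF against GF (0% of all genes, 1382 genes but no member under 0.05). After social interaction 0 of 9 were called for GF-SI against CON-SI (1.10% of all genes, no member under 0.05), exGF-SI against CON-SI (1.31%, no member) and exGF-SI against GF-SI (0.0995%, 1 member). These 6 comparisons share groups with each other. After social interaction Htr2c differed most in size, by 0.61 in GF-SI over CON-SI (95% interval -0.01 to 1.22, adjusted p = 0.309) and -0.59 in exGF-SI over GF-SI (95% interval -1.15 to -0.02, adjusted p = 0.373).

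Receptors varied together within groups in a few pairs. Of 45 pairs of members, 5 had an adjusted p of 0.1 or less for Pearson's r of deviations from the group mean (permutation within groups, two-sided, 40 libraries). Htr1a and Htr1b had the highest r, 0.697 (rho = 0.635, adjusted p = 0.00045, the smallest p that the permutations can give, r = 0.632 without the 2 farthest libraries), and by group r was 0.886 for exGF-SI, 0.865 for CON-SI and 0.486 for GF-SI libraries. Htr2c went with Htr4 (r = 0.558, rho = 0.529, adjusted p = 0.0132), with Htr7 (r = 0.554, rho = 0.524, adjusted p = 0.0132) and with Htr1d (r = 0.509, rho = 0.496, adjusted p = 0.029), and these were 0.517, 0.527 and 0.469 without the 2 farthest. Htr1d and Htr5a went in opposite directions (r = -0.471, rho = -0.485, adjusted p = 0.0757, r = -0.408 without the 2 farthest), although in exGF-SI alone r was 0.443. All these values come from the same libraries and share their depth and dissection.

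**Figure D5:**
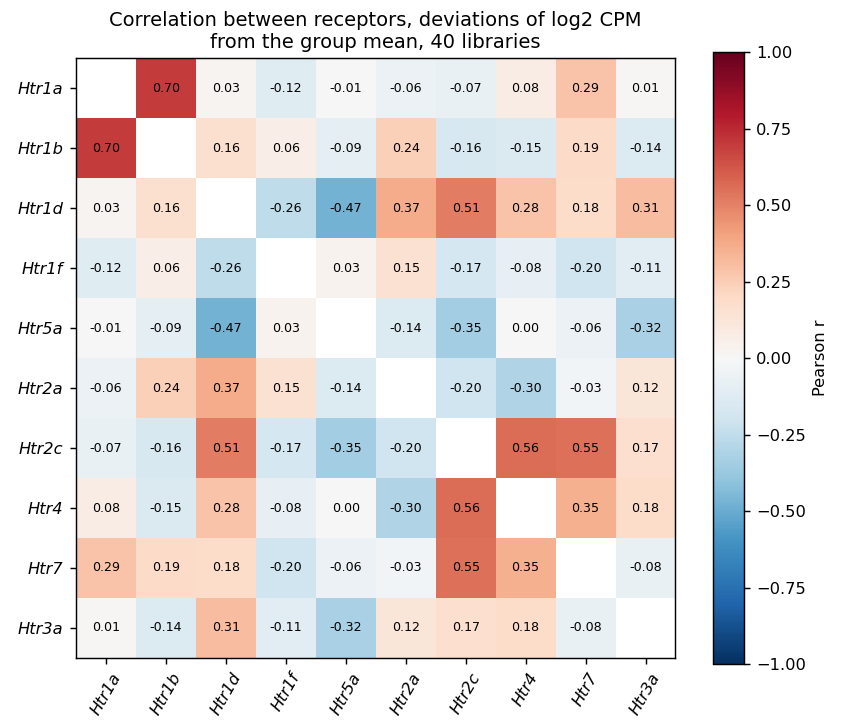
Pearson's r between receptors over 40 libraries, computed on deviations of log2 CPM from the group mean, with red for positive and blue for negative values. Htr1a and Htr1b form the strongest pair at 0.70, and Htr2c is joined with Htr1d, Htr4 and Htr7.

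The genes most like each member, among 14022 genes with a mean of at least 1 CPM, are given as a description, with r of the same deviations over 40 libraries and no test, since they were picked for it. For Htr1a they were Rspo2 (r = 0.907), Cobll1 (0.895) and Nr4a2 (0.886), of which Rspo2 is in the list of amygdala markers and Nr4a2 in that of cortex and claustrum. With the summed markers of cortex and claustrum, however, Htr1a had r = -0.0203 (rho = -0.0456, adjusted p = 0.935 by permutation). For Htr1b they were Cfap58 (0.772), Zbtb41 (0.757) and Cobll1 (0.751), so that Cobll1 is shared with Htr1a. For Htr2c they were Cd36 (0.824), Vat1l (0.823) and Zfp423 (0.807), and for Htr1d Fam102b (0.775), Zcchc12 (0.774) and Irs4 (0.751). For Htr4 they were Magee2 (0.767), Spink8 (0.734), which is in the list of hippocampal markers, and Nr3c2 (0.729), the mineralocorticoid receptor. Htr3a was most like Mas1 (0.738), Gria2 (0.685) and Mageh1 (0.680), Htr7 most like Mapk8ip2 (0.701), Lrrn1 (0.687) and Slc24a3 (0.671), and Htr5a most like 9230114K14Rik (0.701), Pknox1 (0.699) and Abcg1 (0.687). The highest r were lower for Htr2a, with Umps (0.638), Ahcy (0.611) and Map1lc3a (0.606), and for Htr1f, with Sbno2 (0.554), Zfp457 (0.535) and Plxna1 (0.502).

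Among marker lists, 25 of the 170 relations with members had an adjusted p of 0.1 or less by permutation. Htr1a went with the list of interneurons that can carry Htr3a (r = 0.678, rho = 0.673, adjusted p = 0.00238 by permutation), with hypothalamus and thalamus (r = 0.638, rho = 0.631, adjusted p = 0.00085) and with meninges (r = 0.588, rho = 0.607, adjusted p = 0.00255). With this interneuron list Htr3a itself had r = 0.372 (adjusted p = 0.146 for r, not called, and 0.0855 for rho, by permutation). The genes highest in that list were Reln, Cnr1 and Cck (medians 257, 246 and 104 CPM). Htr1b went with amygdala nuclei (r = 0.660, rho = 0.632, adjusted p = 0.00238) and with hypothalamus and thalamus (r = 0.583, rho = 0.531, adjusted p = 0.00595). Htr1a also went with amygdala nuclei (r = 0.517, rho = 0.579, adjusted p = 0.0339 by permutation, r = 0.457 without the 2 farthest libraries). Both of these inhibitory receptors were thus higher where the summed markers of amygdala nuclei and of hypothalamus and thalamus were higher. The latter sum rested mostly on Plekhg1 (median 14.9 CPM) and Synpo2 (median 4.68 CPM). Of its hypothalamic markers, Hcrt and Oxt were at 0 in 28 and 32 of 40 libraries, and Pmch had a median of 0.403 CPM. Htr1b was, however, lower where hippocampal markers were higher (r = -0.463, rho = -0.457, adjusted p = 0.095 by permutation, r = -0.376 without the 2 farthest). Htr3a (r = -0.571, rho = -0.602, adjusted p = 0.00453) and Htr1d (r = -0.697, rho = -0.707, adjusted p = 0.00113) were lower where oligodendrocyte markers were higher, and Htr5a was higher there (r = 0.525, rho = 0.469, adjusted p = 0.0387). Without the 2 farthest libraries r lay between 0.521 and 0.691 for the other relations named of Htr1a and Htr1b, and was -0.562 for Htr3a, -0.636 for Htr1d and 0.482 for Htr5a. Htr2a was lower where hippocampal markers were higher (r = -0.544, rho = -0.604, adjusted p = 0.00243, r = -0.550 without the 2 farthest), and these markers fell in the mean response in which Htr2a rose. By the same test Htr2a rose with striatal markers (r = 0.379, adjusted p = 0.0478), Htr7 with those of inhibitory neurons (r = 0.451, adjusted p = 0.0229) and Htr1d with the interneuron list (r = 0.44, adjusted p = 0.0478). Htr1d fell with markers of cortex and claustrum (r = -0.484, adjusted p = 0.0586), Htr1f with those of astrocytes (r = -0.459, adjusted p = 0.0586) and Htr3a with those of endothelium (r = -0.436, adjusted p = 0.0974). The oligodendrocyte sum ran from 801 to 5236 CPM over the libraries, and the groups overlapped. In the mean response 4 of 5 microglial markers and 2 of 5 of inhibitory neurons fell, where 26.7% of all genes were called. Of 9 striatal markers 1 rose and 3 fell, and of 8 amygdala markers 1 rose and 2 fell. The part of these cell types and regions in the members' changes was not tested.

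Of the 4 other serotonin receptors, Htr5b and Htr6 were measurable, at 0.707 to 2.80 CPM and 0.536 to 2.4 CPM. Htr2b and Htr3b were at 0 in 24 and 36 of 40 libraries. In mice Htr5b encodes a receptor close to that of Htr5a. Htr5b rose in the mean response (0.42 ± 0.15, adjusted p = 0.0432, edgeR) and in GF-SI against GF (0.63 ± 0.23, adjusted p = 0.0999, where Htr5a was at -0.24). The summed markers of serotonergic neurons (Tph2, Slc6a4 and Fev) came to at most 2.39 CPM, with Fev at 0 in 37 libraries and Slc6a4, the serotonin transporter, at 0 in 9.

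Of 12 tested genes of serotonin synthesis, transport and breakdown, 1 rose and 2 fell in the mean response. This count is near the share over all genes, of which 26.7% were called. Maoa, which degrades serotonin, fell by 0.17 ± 0.05 (adjusted p = 0.0151, edgeR), and Ddc, the decarboxylase that makes serotonin and dopamine, by 0.57 ± 0.19 (adjusted p = 0.0241). The highest Ddc, 11.8 CPM, was in P1 of GF, the library with the highest striatal markers, against 7.09 CPM in the next, P3 of exGF. Spr, a reductase that makes the cofactor tetrahydrobiopterin, rose by 0.17 ± 0.08 (adjusted p = 0.0963).

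The next lists hold genes that act downstream of the receptors, read against the 26.7% of all genes called in the mean response. Of 9 genes of the Gi/o branch 4 rose and none fell, among them Gnai3, an inhibitory G protein (0.26 ± 0.05, adjusted p = 0.00064), and Kcnj6, a potassium channel subunit that such receptors open (0.21 ± 0.06, adjusted p = 0.00966). Kcnj9, another such subunit, was at 0.17 ± 0.06 and Gnaz, a further G protein, at 0.12 ± 0.05. Of 10 genes of the Gq branch Prkcb rose (0.21 ± 0.06) and Plcb2 fell (-0.39 ± 0.15), and of 12 of the Gs branch 2 rose (Rapgef3, 0.33 ± 0.07, and Adcy9, 0.14 ± 0.05) and 2 fell (Prkaca, the catalytic subunit of protein kinase A, -0.18 ± 0.04, and Adcy5, -0.17 ± 0.07). The list medians were 0.00, 0.04 and 0.03, against -0.01 over all genes tested. Of 18 receptor partners and regulators 5 rose and none fell, with Rgs2, which shortens Gq signals, at 0.34 ± 0.06 (adjusted p = 5.0e-05), Dlg1 at 0.22 ± 0.05, Mpdz at 0.16 ± 0.06 and Rgs4 at 0.36 ± 0.13. Rgs2 was also called in GF-SI against GF (0.46 ± 0.12) and in exGF-SI against exGF (0.31 ± 0.09). In GF-SI against GF the other calls in these 4 lists were Gnai3 (0.32), Mpdz (0.27) and Prkaca (-0.20), in exGF-SI against exGF they were Prkcb (0.26) and Rapgef3 (0.42), and in exGF-SI against CON-SI it was Gna11 (-0.17).

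As a comparison, of 19 tested receptors for dopamine, noradrenaline, acetylcholine and histamine 2 rose and 1 fell in the mean response. Of all genes 26.7% were called there. The receptors were Hrh1 (0.43 ± 0.09, adjusted p = 0.00041), Adrb1 (0.27 ± 0.11) and Drd5 (-1.24 ± 0.44, 0 to 3.42 CPM). In single responses Hrh1 was called in exGF and Adrb3 in GF (-1.01 ± 0.28). Immediate early genes, which mark recent activity of neurons, were called more often: 8 of 13 rose and 1, Ier2, fell in the mean response, with Fosb at 2.02 ± 0.14 (adjusted p = 6.3e-13). The changes of the members, 0.27, 0.29 and -0.54 on the same log2 scale, were smaller than that of Fosb.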

How the data were processed

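RNA of the left amygdala was sequenced as stranded, ribodepleted, paired libraries. The counts are those the authors deposited: per the methods and processing notes, reads were trimmed with Trimmomatic 0.32, aligned to GRCm38.p3 with STAR 2.4.0f1 and counted per Ensembl gene with HTSeq 0.6.0 without regard to strand, with no scaling between libraries. The authors compared groups with DESeq2 1.6.2, and those results were not used.

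Columns were assigned to groups by their names. No pair of libraries was identical. Each pair of groups was fitted on its own with edgeR 4.0.16 in R 4.3.3 (quasi-likelihood F-test, TMM scaling, filterByExpr, Benjamini-Hochberg adjustment over all genes tested, threshold 0.1). The mean response and differences between responses were contrasts in 1 fit over the 6 groups. DESeq2 1.42.0, RLE scaling, no filter, 1 fit for all pairs, runs without libraries with over 5% of counts in Gm42418 or with choroid plexus or striatal markers over 3 times the median, and each library left out in turn were alternatives. The code was tested on simulated counts. P-values of the fits measure the spread between libraries, estimated for each gene over all groups of a fit. In fits of naïve groups alone this is the spread between naïve libraries, which were pools except as given above. In the other fits it includes the spread between single animals. Correlations used log2 CPM (prior count 2), 100000 permutations within groups and Benjamini-Hochberg adjustment. Symbols for 42462 of 43629 gene identifiers came from a gene name table, and lengths and positions from GENCODE vM21. The members and lists were chosen with earlier results of these data known.

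Named are all members; of each other list the called genes, at most 4 with the smallest p in a comparison; and the 3 genes most like each member. Relations with members were computed for 17 lists of marker genes of cell types and neighbouring regions.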

Additional observations from a re-analysis of the deposited data

Results flagged for a closer look

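The difference in response of Htr5a between GF and CON, -0.59 on the log2 scale, differed between the groups by the test of the difference itself (edgeR, adjusted p = 0.0854), with 0.35 in CON and -0.24 in GF. In 50 groups of 4 to 8 libraries (10 receptors in 5 groups), 2 had a library that stood apart from the rest of its group by Dixon's criterion, where chance gives about 1 in 20 groups. Htr4 in library P4 of GF was at 3.73 CPM, against 5.50 CPM in the nearest and 5.76 CPM in the highest of the 4. Htr3a in library S11 of CON-SI was at 3.75 CPM, against 2.63 CPM in the nearest and 1.90 CPM in the lowest of the 8.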

How the results depend on the processing

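No paired analysis was possible because the columns of the count table cannot be tied to the numbered samples of the labels. No library passed the limit for striatal markers, P1 of GF with 198 CPM included, so that this alternative gave no value. Of 68 counts of members called under the other planned settings, 10 moved by more than the limit for counts. A smaller move was that of the mean response, where 2 members in place of 3 were called without the libraries with high choroid plexus markers, Htr1b being lost. With DESeq2 the members called were 2 in CON-SI against CON and 1 in GF against CON, and with 1 fit over the 6 groups 2 in CON-SI against CON (Htr2a and Htr5a), 1 in GF-SI against GF (Htr5a) and 1 in GF against CON (Htr5a). Without a filter on low counts 1 was called in GF against CON. Without the libraries with high choroid plexus markers 1, Htr2c at -0.93, was called in exGF-SI against exGF. For the response of GF against that of CON the count was 0 without a filter, without the Gm42418-rich libraries and without those with high choroid plexus markers. The cause was not tested. With libraries left out in turn, the count ran from 0 to 2 in CON-SI against CON, from 0 to 1 in GF-SI against GF, exGF-SI against exGF and the response of GF against that of CON, and from 2 to 4 in the mean response, and it was 0 throughout in the other comparisons. Htr2c was called without S2 of CON-SI (-1.05) and without S4 or S5 of exGF-SI, Htr5a without S3 or S9 of GF-SI and without S7 of CON-SI, Htr2a without S2, S10 or S12 of CON-SI and without S7 of exGF-SI, and Htr1d in the mean response without P4 of GF, S5 of GF-SI or S7 of CON-SI. Among the members and comparisons with an unadjusted p under 0.05, which are those recomputed gene by gene, none changed sign under these settings, and the signs of the other members were not followed. Depth limits Htr1d, with at most 24 counts in a library.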
